A study of Mus musculus with 6 samples.

Results

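The early B cell genes examined here are Ebf1, Pax5, Il7r, Dntt, Cd79a, Cd79b, Ighm, Igll1, Vpreb3 and Blnk, 10 of the 22180 genes that carried a single symbol in the array annotation. All 10 were measured, each by its probe set of highest mean over the 6 arrays. They were chosen on the arrays themselves, because several of them peaked in 1 T-bet knockout array and were lowest in 1 wild-type array, so their levels and differences are given as a description and no p-value is attached to them. RNA came from megakaryocyte-erythroid progenitors (MEP), marrow cells committed to making platelets and red blood cells, which were sorted by flow cytometry from fresh marrow of C57BL/6 mice. The mice were T-bet knockouts (3 arrays) or wild type (3 arrays), with 1 mouse per array according to the design text; the mice's ages, the knockout allele and the antibodies of the sorting gate are unstated in the sources used. T-bet, the product of Tbx21, is a transcription factor that directs T helper 1 and natural killer cell fates.

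Commitment to the B lineage runs through the transcription factors EBF1 and PAX5, which act after interleukin 7 signalling in lymphoid progenitors and switch on the parts of the pre-B cell receptor. That receptor pairs the IgM heavy chain with a surrogate light chain and signals through CD79A and CD79B to the adaptor BLNK. MEP belong to another branch of blood formation in the marrow. In sorted bulk RNA, fewer cells of a type and less RNA per cell cannot be told apart.

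Promoters are shown for 3 of the genes, because these were the ones whose windows held a match to one of the motifs searched. RefSeq promoter sequence (GRCm38.p6) was matched for 8 of the 10 genes, with 9 windows in all because Ebf1 had 2. The 250 bases before each start were searched on both strands for CCCNNGGG, the palindrome bound by EBF proteins, and for the E-boxes CAGCTG and CAGGTG, bound by E proteins such as E2A. Matches are in capitals and do not overlap one another. The Igll1 window lies at chr16:16863986-16864235, minus strand, the Cd79a window at chr7:24897247-24897496, plus strand and the Blnk window at chr19:40994222-40994471, minus strand, each printed in the direction of transcription.
Igll1: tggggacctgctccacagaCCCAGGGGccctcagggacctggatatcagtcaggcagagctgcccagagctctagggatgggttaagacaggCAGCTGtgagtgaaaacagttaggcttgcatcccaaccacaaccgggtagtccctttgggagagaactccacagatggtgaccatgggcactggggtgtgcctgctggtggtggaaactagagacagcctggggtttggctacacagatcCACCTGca
Cd79a: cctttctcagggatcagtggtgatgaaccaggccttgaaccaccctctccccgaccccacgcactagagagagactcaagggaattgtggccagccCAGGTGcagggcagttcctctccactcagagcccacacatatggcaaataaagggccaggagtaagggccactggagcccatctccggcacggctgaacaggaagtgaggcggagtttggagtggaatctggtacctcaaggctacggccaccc
Blnk: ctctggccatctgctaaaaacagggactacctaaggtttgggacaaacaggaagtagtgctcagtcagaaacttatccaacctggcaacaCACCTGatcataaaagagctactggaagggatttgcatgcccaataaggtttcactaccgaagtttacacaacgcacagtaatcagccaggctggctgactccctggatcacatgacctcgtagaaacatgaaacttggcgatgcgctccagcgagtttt
In the Igll1 window the CCCNNGGG match began 231 bases before the start, CAGCTG 158 bases and CAGGTG, on the opposite strand, 8 bases before it. CAGGTG began 154 bases before the start of Cd79a and, on the opposite strand, 160 bases before that of Blnk. CCCNNGGG was held by 1 of the 9 windows, against 11.8% of all 32851 promoter windows of this length, CAGCTG by 1 of 9 against 13.0%, and CAGGTG by 3 of 9 against 17.2%. A match describes letters and not a bound site.

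Values below are log2 signals as deposited, so that a difference of 1 is a 2-fold difference, and each ± gives an SD across the 3 arrays of a group. The medians of the arrays lay between 6.44 and 6.53, and arrays correlated with each other across probe sets at r = 0.980 to 0.987. No detection calls were used, and none of the 10 genes lay in the lowest 30% of probe sets by mean, which are called dim below. Of 13 MEP identity genes measured, the median spanned 0.20 over the 6 arrays, but the platelet genes Pf4 and Itga2b spanned 1.09 and 0.71. Of the erythroid transcription factor genes in that list, Gata1 read 10.94 to 11.00 in knockout arrays and 10.91 to 11.00 in wild-type arrays, and Klf1 read 10.68 to 10.75 in knockout arrays and 10.48 to 10.70 in wild-type arrays. Tbx21 averaged 6.49 ± 0.10 in the knockout group and 6.58 ± 0.04 in the wild-type group with overlapping values, so it gave no check of the genotype labels. Sex-linked genes set the arrays apart. Xist, normally made in female cells, was high (11.79 to 12.21) in knockout replicates 1 and 2 and wild-type replicates 1 and 2, and low in knockout replicate 3 (5.42) and wild-type replicate 3 (5.56). Signals of Eif2s3y, a Y-linked gene, were 8.39, 8.86 and 9.73 in the knockout arrays, by replicate number, against 8.78, 4.95 and 9.70 in the wild-type arrays. Both female and male signals were therefore present in 3 arrays, knockout replicates 1 and 2 with wild-type replicate 1, which goes against the description of 1 mouse per array. Eif2s3y was also highest in knockout replicate 3 and lowest in wild-type replicate 2, the same 2 arrays that the B cell genes pick out. A fit with the sex-linked signal as a block of 3 classes is therefore given beside the results it moves. Wild-type replicate 2 is alone in its class, so it adds nothing to the knockout minus wild-type difference in that fit.

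Mean signals were higher in T-bet knockout than in wild-type MEP for 9 of the 10 genes, against 48.2% of all genes, with a median difference of 0.45. Choosing genes by a peak in a knockout array and a low in a wild-type array favours that direction, so nothing is read from it. The knockout and wild-type values overlapped for all 10. Groups did not overlap for 0 of the 10, against 8.70% of all genes. The order of the arrays was much the same from gene to gene: knockout replicate 3 was highest for 9 of the 10, and wild-type replicate 2 was lowest for 8. Both held together for 8 genes, against 2.87% of all 22180 genes. Since that pattern chose the genes, nothing is read from the counts. Averaged over the 10 genes, signals stood 0.18, -0.21 and 0.59 from the mean of the 6 arrays in the knockout arrays, by replicate number, and -0.02, -0.58 and 0.04 in the wild-type arrays. The mean of knockout replicate 2 thus lay below those of wild-type replicates 1 and 3. With sex-linked signal as a block, a fit to whose differences wild-type replicate 2 adds nothing, the median difference was 0.27. With that array simply left out it was 0.21. Without knockout replicate 3 and wild-type replicate 2 the median difference was -0.03, and 4 of the 10 differences were above 0. Across all 41345 probe sets, limma's test at an adjusted p of 0.05 called 0 (0%), and 2033 (4.92%) had an unadjusted p under 0.05.

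**Figure D1:**
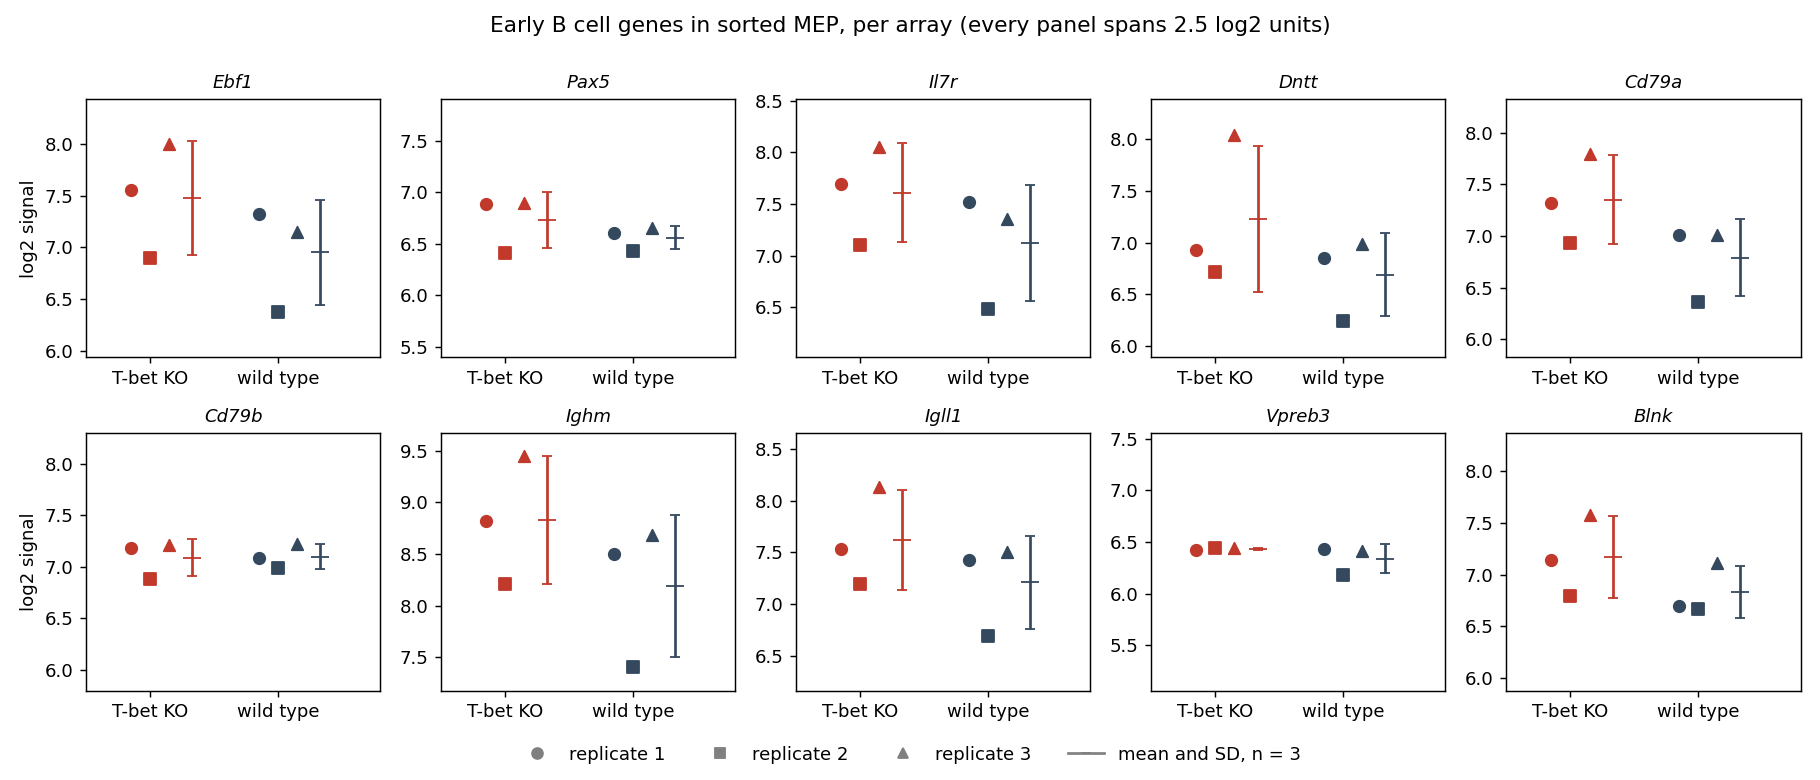
Log2 signal of each early B cell gene in the 3 T-bet knockout arrays (red, left) and the 3 wild-type arrays (dark blue, right), with the shape of a point giving the replicate number and bars the mean and SD over 3 arrays. Knockout replicate 3 is the highest point in 9 of 10 panels, and the groups overlap in every panel.

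The transcription factor genes differed from each other in how far they moved. Ebf1, the factor that specifies the B lineage, read 7.56, 6.90 and 8.0 in knockout arrays and 7.32, 6.37 and 7.15 in wild-type arrays. Its highest value was in knockout replicate 3 and its lowest in wild-type replicate 2, a span of 1.62 (3.08-fold), and knockout replicate 2 lay below wild-type replicates 1 and 3. The difference in group means was 0.54 (SE 0.34), 0.31 (SE 0.31) with the sex-linked block and -0.01 (SE 0.25) without those 2 arrays. Pax5, which locks in B cell identity, read 6.88, 6.41 and 6.89 in knockout arrays and 6.60, 6.43 and 6.65 in wild-type arrays. Its 2 upper knockout values stood above every wild-type value while knockout replicate 2 lay at the bottom, next to wild-type replicate 2, within a span of 0.48. The difference was 0.16 (SE 0.16).

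Il7r, the receptor chain through which interleukin 7 supports lymphoid progenitors, read 7.69, 7.10 and 8.05 in knockout arrays and 7.52, 6.48 and 7.35 in wild-type arrays. Its order of arrays was that of Ebf1 in full, with a span of 1.58 and a difference of 0.50 (SE 0.34), or 0.23 (SE 0.28) with the sex-linked block. Dntt encodes terminal deoxynucleotidyl transferase, which adds nucleotides at the joints of rearranging immunoglobulin genes. It read 6.93, 6.72 and 8.04 in knockout arrays and 6.85, 6.24 and 6.99 in wild-type arrays. Dntt had the most isolated high value of the 10, since knockout replicate 3 stood 1.06 above wild-type replicate 3, the next array, and the other 2 knockout values lay within the wild-type range. The difference of 0.54 (SE 0.37) was 0.44 (SE 0.27) with the sex-linked block. It became -0.10 (SE 0.14) without knockout replicate 3 and wild-type replicate 2.

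The 2 surrogate light chain relatives behaved differently. Igll1, the lambda 5 chain of the pre-B cell receptor, read 7.53, 7.19 and 8.13 in knockout arrays and 7.43, 6.69 and 7.50 in wild-type arrays. Its 4 middle values lay between 7.19 and 7.53, with knockout replicate 3 above and wild-type replicate 2 below them, and the difference was 0.41 (SE 0.30), or 0.23 (SE 0.22) with the sex-linked block. Vpreb3, a relative of the VpreB chains, read 6.42, 6.44 and 6.44 in knockout arrays and 6.43, 6.18 and 6.41 in wild-type arrays. Only wild-type replicate 2 stood apart there, and the other 5 values lay within 6.41 to 6.44; the difference was 0.09 (SE 0.10), or 0.01 (SE 0.11) with that block. Of the VpreB genes proper, which were not among the 10, Vpreb1 was dim and averaged 5.58 ± 0.13 in the knockout group and 5.57 ± 0.19 in the wild-type group. Vpreb2 had its lowest value, 6.41, in knockout replicate 3, opposite to Igll1.

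Among the parts of the B cell receptor, Ighm, the IgM heavy chain constant region, spanned most. It read 8.82, 8.21 and 9.45 in knockout arrays and 8.50, 7.40 and 8.68 in wild-type arrays, a span of 2.05 (4.15-fold). Its difference of 0.64 (SE 0.42) was the largest of the 10 and the only one of at least 1.5-fold, against 0.374% of all genes at least that much higher in the knockout; with the sex-linked block it was 0.34 (SE 0.27). Ighm had 7 probe sets with that single symbol, and they did not share the pattern. The second, nearly as bright, read 8.99, 8.20 and 8.34 in knockout arrays and 8.60, 8.17 and 8.49 in wild-type arrays, with its peak in knockout replicate 1 and a difference of 0.09 (SE 0.23). None of the other 6 was highest in knockout replicate 3, and their differences ran from 0.01 to 0.33. The part of the heavy chain locus that each probe set reads is unstated in the sources used.

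Cd79a and Cd79b encode the paired signalling chains of the receptor, yet only one of them followed the others. Cd79a read 7.32, 6.93 and 7.79 in knockout arrays and 7.01, 6.36 and 7.01 in wild-type arrays. Knockout replicates 1 and 3 lay above all 3 wild-type values and knockout replicate 2 lay below 2 of them. The difference was 0.56 (SE 0.27), or 0.41 (SE 0.22) with the sex-linked block. Cd79b read 7.18, 6.88 and 7.21 in knockout arrays and 7.09, 6.99 and 7.22 in wild-type arrays. It spanned 0.34 over the 6 arrays, its highest value was in wild-type replicate 3, and its difference was -0.01 (SE 0.13). Blnk, the adaptor that carries the receptor signal onward, read 7.14, 6.79 and 7.58 in knockout arrays and 6.70, 6.67 and 7.11 in wild-type arrays. Wild-type replicates 1 and 2 were about equally low for Blnk, unlike for Ebf1 or Ighm, and the difference was 0.34 (SE 0.22).

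**Figure D2:**
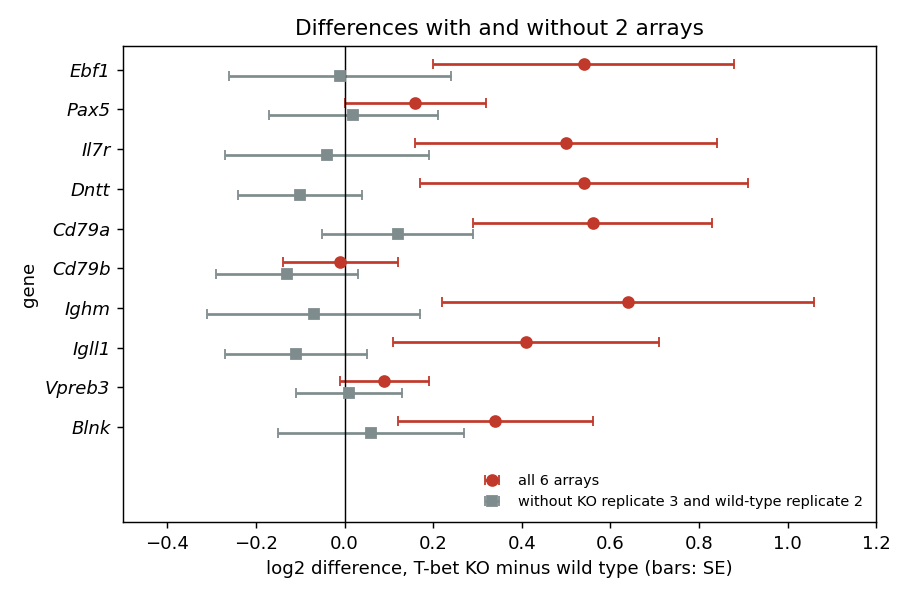
Log2 difference of each early B cell gene, T-bet knockout minus wild type, with bars of 1 SE from limma, for all 6 arrays (red circles) and without knockout replicate 3 and wild-type replicate 2 (grey squares, 2 arrays against 2). With all arrays 9 of 10 differences lie above 0, a direction that the choice of the genes favours (48.2% of all genes lie above 0). Without those 2 arrays the differences run from -0.13 to 0.12.

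Of the 10 genes, 6 spanned at least 2-fold over the arrays (Ebf1, Il7r, Dntt, Cd79a, Ighm and Igll1), against 3.70% of all genes, and Pax5, Cd79b, Vpreb3 and Blnk spanned less. The genes were chosen because several of them peaked in a knockout array and were lowest in a wild-type array. That choice favours a wide span, so nothing is read from this count. Likeness was measured as the root-mean-square (RMS) distance, in log2 units over the 6 arrays, between a gene's values around its own mean and the average of the other 9 genes. Igll1 (0.09) and Cd79a (0.11) lay nearest to the rest. Vpreb3 (0.33) and Cd79b (0.31) lay farthest, as the flattest profiles, and Ighm (0.30) as the one of widest span.

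The arrays numbered 2 were low in both groups. Wild-type replicate 2 was the lowest wild-type array for all 10 genes, and knockout replicate 2 was the lowest knockout array for 9, the exception being Vpreb3. For those 9 genes number 2 was lowest in both groups, against 12.0% of all genes. Low values in wild-type replicate 2 were part of how the genes were chosen, so nothing is read from that count. Set against the array of the same number, knockout was above wild type in all 3 pairs for 7 genes (Ebf1, Il7r, Dntt, Cd79a, Ighm, Igll1 and Blnk), against 12.4% of all genes. Each of those 7 was highest in knockout replicate 3 and lowest in wild-type replicate 2, the pattern that chose the genes. That pattern fixes the sign for numbers 2 and 3, so nothing is read from this count. For Ebf1 the differences were 0.24, 0.53 and 0.84 for numbers 1 to 3, and for Cd79a they were 0.32, 0.57 and 0.78. For Dntt they were 0.08, 0.47 and 1.06. With replicate number as a block the differences were those of the unpaired fit, but most SEs were smaller. They were 0.14 for Ebf1 (0.34 unpaired), 0.14 for Il7r (0.34), 0.12 for Cd79a (0.27) and 0.13 for Ighm (0.42), and for Vpreb3 0.10 in both fits. The genes were chosen by their values on these same arrays, so nothing is read from the smaller SEs. Within arrays of the same sex-linked signal, Ebf1 in knockout replicates 1 and 2 averaged 0.09 less than in wild-type replicate 1 (difference -0.09), while knockout replicate 3 stood 0.84 above wild-type replicate 3. Cd79a differed by 0.12 and 0.78 in the same settings, and Ighm by 0.01 and 0.77. Each setting holds a single wild-type array.

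**Figure D3:**
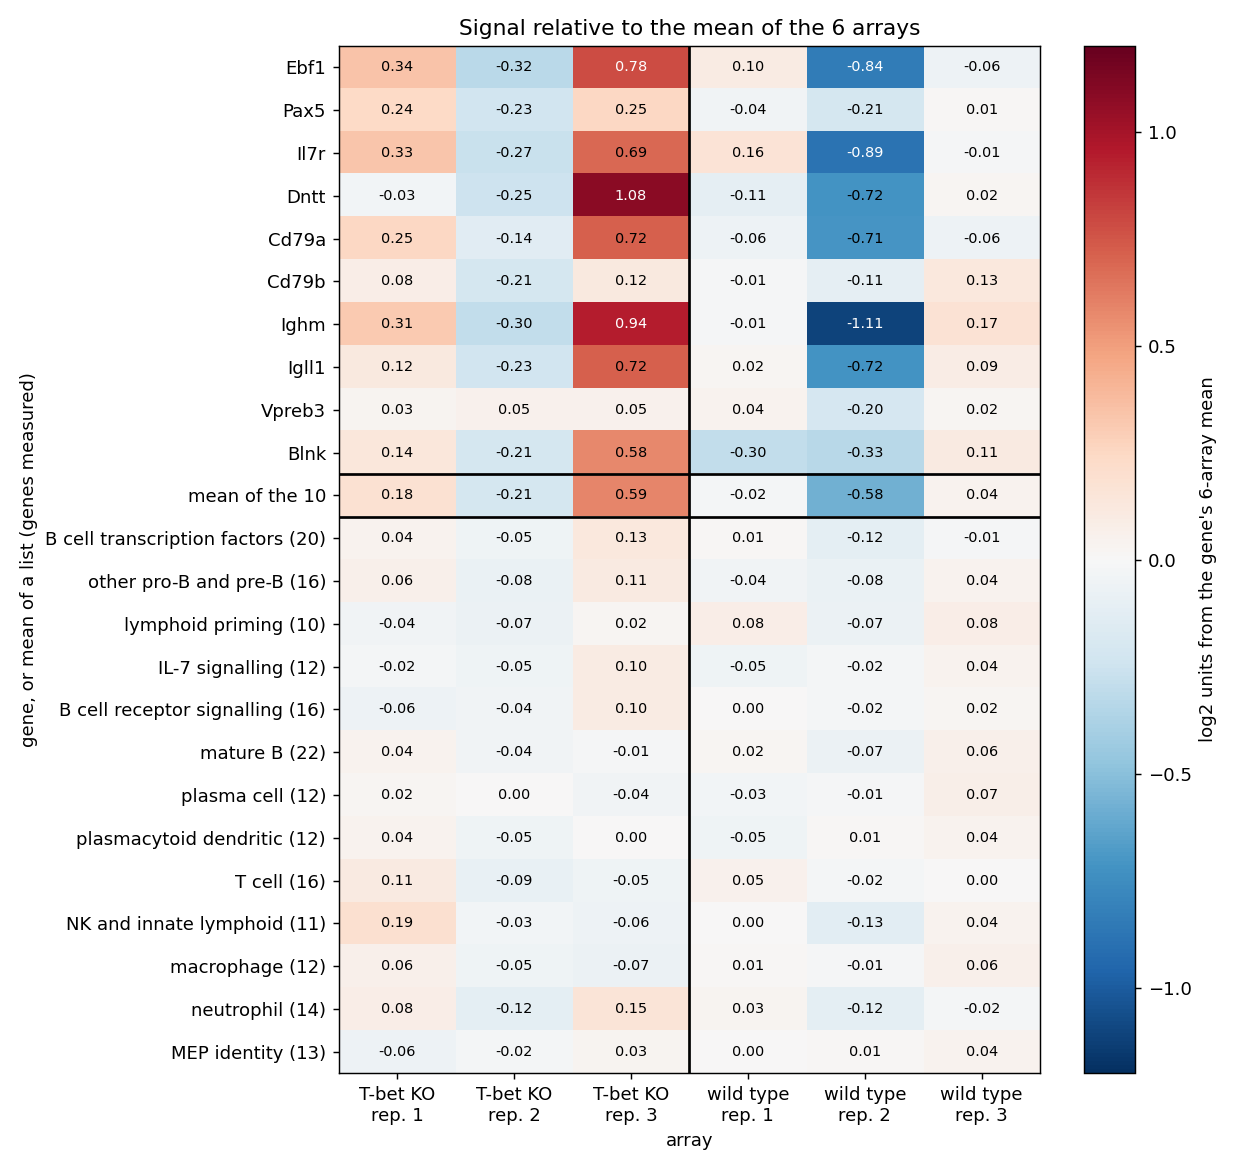
Log2 signal of each early B cell gene (upper rows) in each array relative to the gene's mean over the 6 arrays, the mean of the 10 genes (boxed row), and below it the mean over each marker list, with the number of genes measured; T-bet knockout arrays are on the left and wild-type arrays on the right. The mean of the 10 runs from -0.58 in wild-type replicate 2 to 0.59 in knockout replicate 3, and no list below it leaves the range -0.13 to 0.19.

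The rest of the B cell programme was read from genes outside the 10. Their lists were drawn up with earlier results of these arrays known, so the shares below describe the lists and are no independent check. Of 101 other B lineage genes measured, in 7 overlapping lists, limma called 0 at an adjusted p of 0.05 and 0 had an unadjusted p under 0.05, where 1.44% of all genes were higher and 1.70% lower at that unadjusted threshold. Their median difference was 0.02, with 57 above 0 (56.4%, against 48.2% of all genes). Knockout replicate 3 was highest for 32 of them (31.7%, against 21.5% of all genes) and wild-type replicate 2 lowest for 26 (25.7%, against 13.0%). Both held for 11 of the 101 (10.9%, against 2.87%). Number 2 was lowest in both groups for 27 (26.7%, against 12.0%). Such shares were not particular to B lineage lists. Both held for 3 of 14 neutrophil, 2 of 12 plasmacytoid dendritic and 1 of 11 natural killer and innate lymphoid genes. They held for 0 T cell, macrophage or MEP identity genes. Number 2 was lowest in both groups for 42.9%, 33.3% and 36.4% of the first 3 lists, and for 18.8%, 8.33% and 23.1% of the last 3.

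By function, transcription factor genes that act with or against EBF1 and PAX5 had a median difference of 0.05, with 17 of 20 above 0. Lef1, a Wnt pathway factor of pro-B cells, read 7.17, 6.94 and 7.56 in knockout arrays and 7.11, 6.55 and 7.05 in wild-type arrays. It ordered the 6 arrays as Ebf1 and Il7r did, and differed by 0.32 (SE 0.21). Pou2af1, a B cell coactivator gene, differed by 0.24 (SE 0.19) and was highest in knockout replicate 3, at 7.09. Spib, an ETS factor gene, was dim and differed by 0.24 (SE 0.25). Other pro-B and pre-B genes had a median of 0.07, with 11 of 16 above 0, and Vpreb2 among them differed by -0.25 (SE 0.14).

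The signalling partners of Il7r and of the receptor had median differences near 0, while many of them peaked in knockout replicate 3: 6 of 12 interleukin 7 signalling genes and 7 of 16 B cell receptor signalling genes, against 21.5% of all genes. Wild-type replicate 2 was lowest for 0 and 5 of them. Among the interleukin 7 signalling genes 7 were above 0, with a median of 0.04. The cytokine gene Il7 itself was dim and differed by 0.22 (SE 0.14). It was the 1 gene of those 12 whose groups did not overlap, against 8.70% of all genes. The feedback inhibitor gene Socs1 differed by -0.12 and the kinase gene Pim1 by -0.11. Among the receptor signalling genes 7 were above 0, with a median of -0.02. The protein kinase C gene Prkcb differed by 0.21, the kinase gene Syk by -0.13 and the adaptor gene Sh3kbp1 by 0.12. Syk, which acts directly upstream of BLNK, read 8.14, 8.13 and 8.48 in knockout arrays and 8.31, 8.37 and 8.45 in wild-type arrays, with wild-type replicate 2 in the upper part of its range.

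Stages before and after the pre-B cell had medians near 0. Lymphoid priming genes had 4 of 10 above 0 and a median of -0.04, with the costimulatory receptor gene Cd27 at -0.30 (SE 0.14), the transcription factor gene Mef2c at -0.19 and the surface marker gene Ly6d at -0.15. Mature B cell genes had 12 of 22 above 0 and a median of 0.01, with Cd180 at -0.35 (SE 0.18), Spib at 0.24 (SE 0.25) and the MHC class II activator gene Ciita at -0.21. The groups did not overlap for 2 of the 22, against 8.70% of all genes. These were the complement receptor gene Cr2 at 0.21 (dim) and Fcmr at -0.13. Ms4a1, which encodes CD20, was dim and averaged 5.40 ± 0.06 in the knockout group and 5.41 ± 0.08 in the wild-type group. Plasma cell genes had 5 of 12 above 0 and a median of -0.01, with Prdm1 at 0.14, Jchain at -0.10 and Tnfrsf17 at -0.09. The mean level of the mature B list ran from 6.50 to 6.58 over the knockout arrays and from 6.47 to 6.60 over the wild-type arrays.

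Markers of other marrow cells were set beside the 10 genes in the same way, and their part in the result was not tested. Of the non-B lists, neutrophil genes had the largest count highest in knockout replicate 3, 7 of 14, with a median difference of 0.00 and a mean of 0.15 above the 6-array level there and -0.12 in wild-type replicate 2; 7 of the 14 were dim. Their mean level ran from 5.63 to 5.90 in knockout and from 5.63 to 5.78 in wild-type arrays. S100a8, a neutrophil calcium-binding protein gene, was dim and read 4.58, 4.36 and 5.27 in knockout arrays and 4.47, 4.14 and 4.43 in wild-type arrays. Ly6g (dim) and S100a9 differed by 0.29 and 0.24, and both were highest in knockout replicate 1. Ltf, Retnlg and Lcn2 went the other way, with their lowest values in knockout replicate 3 (5.23, 4.43 and 6.36). T cell genes were highest in knockout replicate 3 for 0 of 16 (median -0.05; Lat -0.27, Cd4 0.27, Bcl11b 0.21). Natural killer and innate lymphoid genes were highest there for 1 of 11 (median 0.11; Prf1 0.29, Nkg7 -0.28, Cd7 0.23). Among all genes that share was 21.5%. Wild-type replicate 2 was lowest for 3 of 14 neutrophil, 3 of 16 T cell and 3 of 11 natural killer and innate lymphoid genes, against 13.0% of all genes.

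Plasmacytoid dendritic cell genes had 6 of 12 above 0, a median of -0.01, with Spib at 0.24, Ly6d at -0.15 and Cox6a2 at -0.14. Macrophage genes had 5 of 12 above 0 and a median of -0.05, with C1qa at -0.31, C1qc at -0.18 and Cd5l at 0.15. MEP identity genes had 8 of 13 above 0 and a median of 0.01, with Pf4 at -0.48 (SE 0.21), Itga2b at -0.34 (SE 0.14) and Klf1 at 0.12. Itga2b was the 1 gene of this list whose groups did not overlap, against 8.70% of all genes. All 3 of its knockout values (7.15 to 7.34) lay below the wild-type values (7.41 to 7.86), and its unadjusted limma p was 0.0449 (adjusted p = 1). Over the 6 arrays the mean of the MEP list stayed within 10.10 to 10.18 in knockout arrays and 10.16 to 10.19 in wild-type arrays. Knockout replicate 3 was highest for 4 of 12 plasmacytoid dendritic, 3 of 12 macrophage and 2 of 13 MEP identity genes, against 21.5% of all genes. Wild-type replicate 2 was lowest for 2, 0 and 2 of them, against 13.0% of all genes.

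The profiles most like the mean of the 10 genes were sought among 14713 other named genes outside the dim 30%. The nearest was Lef1, at an RMS distance of 0.074, where a flat profile lies at 0.36 and the median gene at 0.38. Gfra2, a neurotrophic factor receptor gene, followed at 0.102, then the phosphodiesterase gene Pde2a at 0.120 and the leukocyte tetraspanin gene Cd53 at 0.121. Pde2a read 8.30, 7.64 and 8.53 in knockout arrays and 8.11, 7.26 and 7.93 in wild-type arrays. Cd53 read 6.78, 6.64 and 7.41 in knockout arrays and 6.95, 6.21 and 6.97 in wild-type arrays. Both were highest in knockout replicate 3 and lowest in wild-type replicate 2, with overlapping groups. Trp53i11 (0.133), the acid phosphatase gene Acp5 (0.135), the transcription factor gene Twist1 (0.141), the lymphocyte receptor gene Cd96 (0.144), Phlda1 (0.156) and the microRNA gene Mir27a (0.165) completed the 10 nearest. Their knockout minus wild-type differences ran from 0.10 (Phlda1) to 0.41 (Gfra2). These distances describe 6 arrays and were chosen as the smallest of many.

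**Figure D4:**
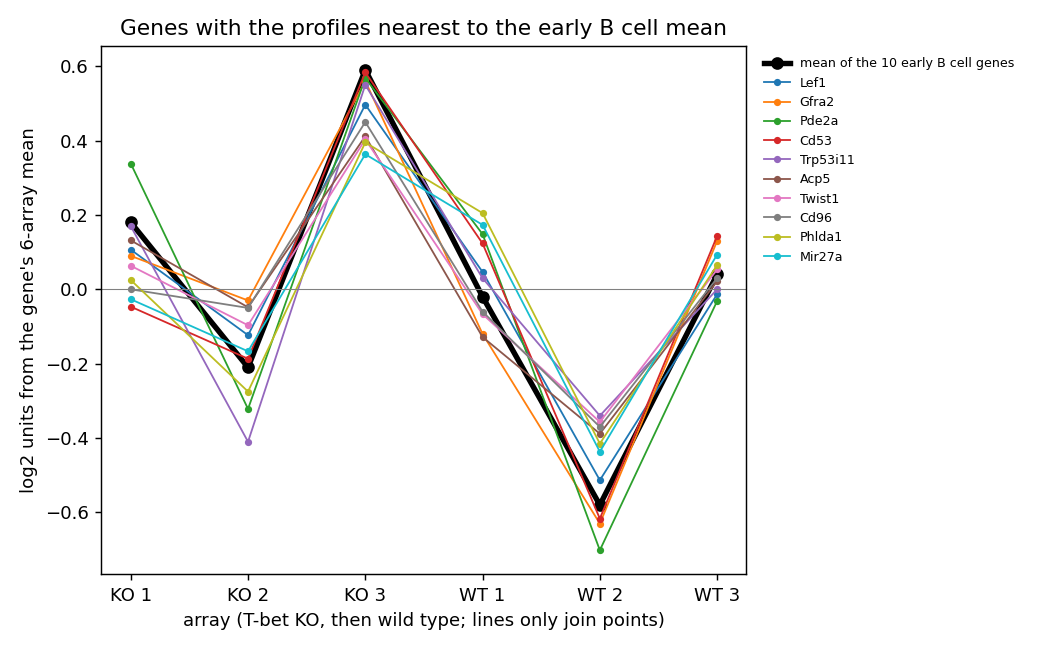
Log2 signal relative to each gene's mean over the 6 arrays, for the mean of the 10 early B cell genes (thick black) and for the 10 other genes with the nearest profiles (thin lines), T-bet knockout arrays on the left and wild-type arrays on the right. All 10 peak in knockout replicate 3, and 9 have their lowest value in wild-type replicate 2, the exception being Trp53i11, lowest in knockout replicate 2.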

How the data were processed

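RNA of sorted MEP was measured on 6 Affymetrix arrays, 3 T-bet knockout and 3 wild-type. The authors deposited log2 signals of 41345 probe sets; the submitters' processing notes name Affymetrix Expression Console, version 1.4.1.46, while background correction, normalization and summarisation are unstated in the sources used, and the log base was inferred from the highest value, 14.2. Values were used as deposited. The array annotation named 23521 probe sets with 1 symbol, 1814 with several and left 16010 unnamed; symbols were updated by gene ID through RefSeq (GRCm38.p6, 23328 found), giving 22180 genes at their probe set of highest mean.

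Differences, knockout minus wild type, and SE came from limma 3.58.1 in R 4.3.3, fitted on all probe sets with Benjamini-Hochberg adjustment; the fit was tested on simulated data. Each p-value weighs a difference in group means against the spread of these arrays within their groups, and the number of arrays limits precision. Since 3 arrays held both female and male signals, whether that spread is a spread between single mice is unknown. Named genes were the 10, Tbx21, the sex-linked genes, the 3 of largest absolute difference in each list, and the 10 nearest profiles outside predicted genes and Riken clones. Gata1, Vpreb1, Ms4a1, Cr2, Fcmr, Ltf, Retnlg and Lcn2 were named after their values were seen. Members and lists were chosen with earlier results of these data known. Lists count measured genes only; the others are not analysed here. Promoter windows came from RefSeq.

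Same-numbered arrays met a criterion for pairs that was set with earlier results of these data known. Their deviations from the group means correlated at 0.285, 0.116 and 0.115 over genes, though at 0.0569 for number 2 over all probe sets. Arrays of different numbers were not compared. The number 2 arrays differed in sex-linked signal, with Eif2s3y at 8.86 in the knockout and 4.95 in the wild-type array. The labels do not say what a number shares. Differences and SE are from the unpaired fit unless the replicate block is named.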

Additional observations from a re-analysis of the deposited data

How the results depend on the processing

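Leaving out knockout replicate 3 and wild-type replicate 2 together, an alternative chosen after seeing the data, changed the median difference of the 10 early B cell genes to -0.03, against 0.45 with all arrays. Ebf1, Il7r, Dntt, Ighm and Igll1 then had differences of -0.01, -0.04, -0.10, -0.07 and -0.11, and Cd79a 0.12. Leaving out a single array gave medians from 0.14 (without knockout replicate 3) to 0.69 (without knockout replicate 2), with 0.21 without wild-type replicate 2. Array weights gave 0.30, a block for the sex-linked signal 0.27, and the mean over all probe sets of a gene 0.38. The replicate block, which pairs same-numbered arrays, left the median at 0.45, with smaller SEs for 9 of the 10 genes. Nothing is read from those SEs, since the genes were chosen on these arrays. That block called 0 probe sets and 0 of the other B lineage genes. Blnk, Cd79a, Pax5 and Vpreb3 were above 0 under all 16 alternatives, and Cd79b under 2. The lowest differences of those 4 genes were small, at 0.06, 0.12, 0.02 and 0.01. The alternatives reuse the arrays on which the genes were chosen. limma called 1 probe set after centring each array on its median, 1 under array weights, 1 without both arrays, and 0 to 2 when a single array was left out (2 without knockout replicate 3). Of the other B lineage genes it called 0 under each alternative run, with 0 to 3 at an unadjusted p under 0.05. Without detection calls, how far each signal lies above background is unknown.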
